A study of Mus musculus with 10 samples.

Results

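The 9 genes described here are Tgfb1, Tgfbr1, Tgfbr2, Smad2, Smad3, Smad4, Smad7, Ski and Skil, which encode a TGF-beta ligand, both of its signalling receptors, the Smad proteins that carry the signal and the repressors that limit it. They were chosen by name, and every probe set that the platform annotation gives to them was taken, which made 22 probe sets for 9 of the 18193 genes on the array. The RNA came from thymic invariant natural killer T (iNKT) cells of 6-week-old C57BL/6 mice, sorted as cells that bound the CD1d tetramer and lacked CD24 and NK1.1. Stage 1 cells were CD44- and stage 2 cells CD44+. The groups were WT stage 1 (2 arrays), WT stage 2 (3 arrays), Id3KO stage 1 (2 arrays) and Id3KO stage 2 (3 arrays), and the labels call the replicates biological. The sources used here do not give how the Id3 allele was made or whether mice were pooled for an array.

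TGF-beta binds the type II receptor Tgfbr2, which phosphorylates the type I receptor Tgfbr1, and Tgfbr1 then phosphorylates Smad2 and Smad3. These join Smad4 and enter the nucleus, where they act on target genes together with other transcription factors. Smad7, itself a target gene, blocks the receptor, and Ski and Skil (SnoN) bind the Smads and hold their targets repressed. In the thymus, TGF-beta signalling is known to be needed for iNKT cell development and for the iNKT cells that make IL-17. Id3 pairs with E proteins and keeps them from binding DNA at E-boxes.

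The 250 bases before an annotated start were searched for 5 members. They are shown for Tgfbr1, Tgfbr2, Smad3 and Ski, so that their base composition and E-boxes can be seen beside their levels. They are RefSeq sequences of GRCm38.p6, written 5′ to 3′ on the strand of the gene. Capitals mark an E-box (CANNTG), a Smad box (CAGAC) or a GC box (GGGCGG), each searched on both strands, and no match overlaps another in these windows. The first Tgfbr1 window is chr4:47352972-47353221 and the second chr4:47385966-47386215, both on the plus strand; the minus strand windows are chr9:116175364-116175613 for Tgfbr2, chr9:63757995-63758244 for Smad3 and chr4:155222536-155222785 for Ski.
Tgfbr1, first start: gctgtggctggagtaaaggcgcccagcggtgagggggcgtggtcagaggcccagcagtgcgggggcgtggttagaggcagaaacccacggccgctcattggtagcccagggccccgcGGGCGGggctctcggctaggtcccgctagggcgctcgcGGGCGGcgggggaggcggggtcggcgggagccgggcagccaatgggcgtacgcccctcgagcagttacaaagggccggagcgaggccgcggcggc
Tgfbr1, second start: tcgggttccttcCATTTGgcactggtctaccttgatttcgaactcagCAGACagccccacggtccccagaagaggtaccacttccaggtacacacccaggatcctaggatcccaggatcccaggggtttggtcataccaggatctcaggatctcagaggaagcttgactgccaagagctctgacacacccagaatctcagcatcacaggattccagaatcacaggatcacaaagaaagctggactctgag
Tgfbr2: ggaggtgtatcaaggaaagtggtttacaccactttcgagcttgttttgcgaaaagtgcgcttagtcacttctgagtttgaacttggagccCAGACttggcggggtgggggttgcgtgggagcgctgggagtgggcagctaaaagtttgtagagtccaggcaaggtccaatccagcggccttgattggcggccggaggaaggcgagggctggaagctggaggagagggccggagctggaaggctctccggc
Smad3: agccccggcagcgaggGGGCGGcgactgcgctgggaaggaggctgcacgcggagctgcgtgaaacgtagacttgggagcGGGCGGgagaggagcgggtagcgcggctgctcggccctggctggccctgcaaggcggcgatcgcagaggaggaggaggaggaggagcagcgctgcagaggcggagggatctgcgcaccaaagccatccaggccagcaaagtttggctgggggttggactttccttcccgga
Ski: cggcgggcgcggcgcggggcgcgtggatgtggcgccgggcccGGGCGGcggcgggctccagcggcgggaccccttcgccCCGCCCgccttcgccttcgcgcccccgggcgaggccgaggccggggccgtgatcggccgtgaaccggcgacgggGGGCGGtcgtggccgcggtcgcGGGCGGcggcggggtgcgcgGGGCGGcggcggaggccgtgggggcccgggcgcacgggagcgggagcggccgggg
The Ski window was 87.6% G and C and held 5 GC boxes. The first Tgfbr1 window was 74.8% G and C and the Smad3 window 69.2%, each with 2 GC boxes, and the Tgfbr2 window was 58.4%. An E-box was found in 1 of these windows, CATTTG at 238 bases before the second Tgfbr1 start, and a Smad box in that window and in the Tgfbr2 window. The Tgfb1 window, which is not shown, was 75.2% G and C and held 5 GC boxes but neither an E-box nor a Smad box. Of all 32851 windows of this length, 66.2% held an E-box, 42.2% a Smad box and 32.7% a GC box, and their median G and C content was 52.4%. A match is a description of these letters and not a binding site.

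Values are log2 of the deposited probe set intensities unless stated, and a level is compared only with other arrays of the same probe set. A probe set was tested when at least 2 arrays read it above 5.78, the median log2 intensity of the whole table; 25061 of 45037 met this. Of the member probe sets 19 were tested, and the 3 others (Tgfbr1 1420893_a_at and 1420894_at, Tgfbr2 1422019_at) were above that median on 0 of 10 arrays. The array medians were alike, at intensities of 54.75 to 55.49. The Id3 probe set read an intensity of 818 to 1289 on the WT arrays and 54.2 to 69.8 on the Id3KO arrays, with log2 fold changes of -4.32 at stage 1 (limma, adjusted p = 1.83e-05) and -3.83 at stage 2 (adjusted p = 9.02e-06). Cd44, the gene of the sort marker, read 7.20 and 7.81 in WT stage 1, 7.03 and 7.99 in Id3KO stage 1, 9.35 to 9.74 in WT stage 2, and 9.17, 8.13 and 8.99 in Id3KO stage 2. Of 10 T cell markers listed, 9 had a probe set and all 9 were tested. Cd2 differed by 1.14 at stage 1 (adjusted p = 0.0306), a call lost without WT stage 2 replicate 2, among other arrays. It differed by 1.06 at stage 2 (adjusted p = 0.00610). Cd247 differed by -0.54 over both stages (adjusted p = 0.00569), and the 7 others were not called between the genotypes. Cd1d1, listed with the sort markers, differed by -0.78 at stage 2 (adjusted p = 0.0436), a call lost without any WT stage 2 array, among other arrays.

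At stage 2, probe sets for Tgfbr1, Smad7, Ski and Skil were lower in Id3KO than in WT cells, by 0.61 to 1.08 on the log2 scale, while none of the 19 was called higher. The ligand Tgfb1, Tgfbr2, Smad2, Smad3 and Smad4 had no called probe set in that comparison. In all, 5 of the 19 tested probe sets fell, for 4 genes, and 14 were not called, at an adjusted p under 0.05 in limma over all 25061 probe sets. One of the 5, Smad7 1443771_x_at, read below the table median on every Id3KO stage 2 array and met the filter only through its WT arrays. Over all probe sets 2.39% were called lower and 1.82% higher. The median difference of the 19 was -0.25, beside 0.01 over all tested probe sets. On 9 of the 19 every Id3KO stage 2 array was below every WT stage 2 array, against 10.5% of all probe sets. These 9 include Smad7 1443771_x_at and Skil 1422054_a_at, which were tested only because WT arrays were above the table median. In sorted bulk cells, fewer cells of a kind and less RNA per cell cannot be told apart.

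At stage 1, limma called 0 of the 19 probe sets. At an unadjusted p under 0.05, 4 were lower, beside 5.41% of all probe sets, and 1 was higher, beside 5.08%. The smallest adjusted p was 0.109. Over all probe sets 0.343% were called lower and 0.459% higher at this stage. The median of the 19 differences was -0.18, beside -0.01 over all, and 14 were negative. Both Id3KO arrays were below both WT arrays on 12 of the 19, against 22.8% of all probe sets, and above them on 2, against 18.7%. With both stages averaged, 6 probe sets fell and 0 rose, against 2.79% lower and 2.18% higher among all. These 6 were 1454960_at for Smad3 and both probe sets of Smad7, both of Ski and 1452214_at for Skil. On 7 of the 19 probe sets all 5 Id3KO arrays were below all 5 WT arrays, against 3.75% of all probe sets. These 7 were the 6 above and Skil 1422054_a_at. Skil 1422054_a_at was above the table median on WT arrays alone. Smad7 1443771_x_at was above it on every WT array and, of the Id3KO arrays, only on stage 1 replicate 1. Both were therefore tested only through their WT arrays, and both are also among the 12 at stage 1.

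**Figure D1:**
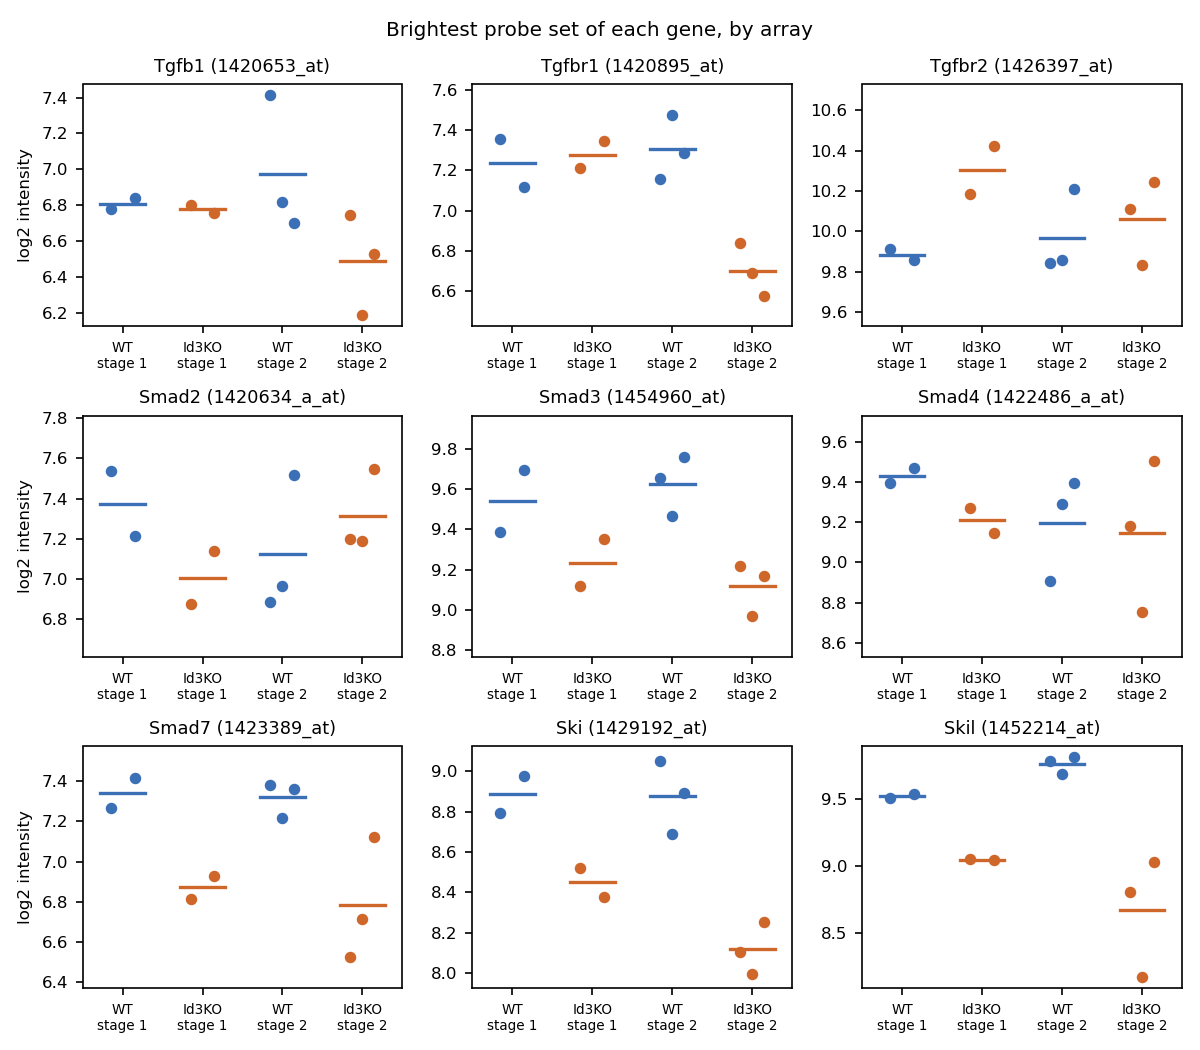
Log2 intensity of the brightest probe set of each member on each of the 10 arrays, with the groups along the x axis, 1 point per array and a bar at each group mean. For Smad3, Smad7, Ski and Skil the Id3KO points lie below the WT points at both stages. They do so for Smad2 and Smad4 at stage 1 alone and for Tgfbr1 at stage 2 alone, and for Tgfbr2 they mix at stage 2.

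Tgfb1, the ligand, is measured by 2 probe sets. Probe set 1420653_at read 6.78 and 6.84 in WT stage 1, 6.80 and 6.76 in Id3KO stage 1, 7.41, 6.82 and 6.70 in WT stage 2, and 6.75, 6.19 and 6.53 in Id3KO stage 2. The stage 1 groups overlapped, and so did the stage 2 groups, where WT replicate 1 was the highest array of all. The stage 2 difference was -0.49 ± 0.19 (SE; adjusted p = 0.237), or -0.27 without that array (adjusted p = 0.454), and the stage 1 difference -0.03 ± 0.24 (adjusted p = 0.983). On 1445360_at the 3 Id3KO stage 2 arrays, at 6.33 to 6.36, were all below the WT arrays at 6.55 to 6.65. That difference, -0.25 ± 0.06, was not called (adjusted p = 0.0688), although it was with no filter on dim probe sets (adjusted p = 0.0327). At stage 1 the same probe set differed by 0.13 ± 0.08 in the other direction, and the difference between the stages was -0.38 ± 0.10 (adjusted p = 0.553).

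Tgfbr1, the type I receptor kinase, fell at stage 2. Its one tested probe set, 1420895_at, read 7.16, 7.48 and 7.29 in WT stage 2 and 6.84, 6.69 and 6.58 in Id3KO stage 2, and 7.35 and 7.12 in WT stage 1 against 7.21 and 7.34 in Id3KO stage 1. The stage 2 groups did not overlap, whereas the stage 1 arrays of the genotypes overlapped, and all of them were above every Id3KO stage 2 array. The stage 2 difference was -0.61 ± 0.11 (adjusted p = 0.0210; 1.52-fold lower; 95% interval -0.86 to -0.35), and the stage 1 difference 0.04 ± 0.14 (adjusted p = 0.967; interval -0.27 to 0.35). The difference between these differences was -0.65 ± 0.18, and limma did not call it over all probe sets (adjusted p = 0.590). The stage 2 call was lost when WT replicate 2 (adjusted p = 0.0712), WT replicate 3 (0.0719), Id3KO replicate 2 (0.0656) or Id3KO replicate 3 (0.0586) was left out. The other probe sets for Tgfbr1 read intensities of 35.2 to 42.0 on every array and were not tested.

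Tgfbr2, the type II receptor that binds the ligand, had no call in either direction. On its bright probe set, 1426397_at, the WT arrays read 9.91 and 9.86 at stage 1 and 9.84, 9.86 and 10.21 at stage 2. The Id3KO arrays read 10.18 and 10.42 at stage 1 and 10.11, 9.83 and 10.24 at stage 2. Both Id3KO stage 1 arrays were above both WT ones, by 0.42 ± 0.17 (adjusted p = 0.421), and the stage 2 arrays of both genotypes overlapped. The stage 2 difference was 0.09 ± 0.14 (adjusted p = 0.825), with an interval of -0.22 to 0.41. The second probe set, 1425444_a_at, differed by 0.02 at stage 1 (adjusted p = 0.976) and by 0.12 at stage 2 (adjusted p = 0.525).

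Smad2 and Smad3 are the receptor-activated Smads. Smad3, on 1454960_at, read 9.39 and 9.69 in WT stage 1, 9.12 and 9.35 in Id3KO stage 1, 9.66, 9.47 and 9.76 in WT stage 2, and 9.22, 8.97 and 9.17 in Id3KO stage 2. All 5 Id3KO arrays were below all 5 WT arrays. The difference was -0.30 ± 0.15 at stage 1 (adjusted p = 0.549) and -0.51 ± 0.12 at stage 2 (adjusted p = 0.0568). Averaged over both stages it was -0.41 ± 0.10, with an adjusted p of 0.0499, just inside the threshold, and this call was lost whichever array was left out (adjusted p 0.0521 to 0.180). The dim Smad3 probe sets, 1450471_at and 1450472_s_at, passed the filter on 3 and 4 arrays, and their stage 2 differences were -0.05 (adjusted p = 0.840) and 0.07 (adjusted p = 0.834).

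Smad2, the other receptor-activated Smad, had no call. On 1420634_a_at it read 7.53 and 7.21 in WT stage 1, 6.88 and 7.14 in Id3KO stage 1, 6.89, 6.97 and 7.52 in WT stage 2 and 7.20, 7.19 and 7.55 in Id3KO stage 2. The Id3KO arrays were the lower ones at stage 1, with no overlap, and mixed with the WT arrays at stage 2. The differences were -0.37 ± 0.23 (adjusted p = 0.659) and 0.19 ± 0.19 (adjusted p = 0.712; interval -0.23 to 0.61). On 1442062_at they were -0.18 at stage 1 (adjusted p = 0.726) and -0.13 at stage 2 (adjusted p = 0.632).

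Smad4, the partner that Smad2 and Smad3 share, had 3 tested probe sets and no call. Its brightest, 1422486_a_at, read 9.40 and 9.47 in WT stage 1, 9.27 and 9.15 in Id3KO stage 1, 8.91, 9.29 and 9.39 in WT stage 2 and 9.18, 8.75 and 9.50 in Id3KO stage 2. The stage 2 arrays of the genotypes overlapped across nearly their whole range. The stage 2 differences of the 3 probe sets were -0.05 ± 0.19 for 1422486_a_at (adjusted p = 0.943), 0.02 ± 0.11 for 1422487_at (adjusted p = 0.962; interval -0.23 to 0.27) and -0.09 for 1422485_at (adjusted p = 0.792). Their stage 1 differences were -0.22, -0.11 and 0.01, with adjusted p of 0.830, 0.873 and 0.990.

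Smad7, the inhibitory Smad, was lower in Id3KO cells on both of its probe sets. Probe set 1443771_x_at read 6.66 and 6.32 in WT stage 1, 5.89 and 5.71 in Id3KO stage 1, 6.27, 6.496 and 6.67 in WT stage 2 and 5.66, 5.48 and 5.54 in Id3KO stage 2. No Id3KO array reached the lowest WT array, and the Id3KO stage 2 mean, 5.56 ± 0.09 (SD, n = 3), was below the table median, so no fold is given. The difference was -0.69 ± 0.16 at stage 1 (adjusted p = 0.109), -0.92 ± 0.13 at stage 2 (adjusted p = 0.00594) and -0.80 ± 0.10 over both stages (adjusted p = 0.00262). This probe set was above the table median on every WT array and, of the Id3KO arrays, only on stage 1 replicate 1. It was therefore tested only through its WT arrays. Probe sets of the _x_at class can hybridise to related transcripts. On the brighter 1423389_at the WT arrays read 7.26 and 7.42 at stage 1 and 7.38, 7.22 and 7.36 at stage 2. The Id3KO arrays read 6.82 and 6.93 at stage 1 and 6.53, 6.72 and 7.12 at stage 2, again all below the WT arrays. Its stage 1 difference was -0.47 ± 0.17 (adjusted p = 0.378) and its stage 2 difference -0.53 ± 0.14 (adjusted p = 0.0781). Without Id3KO stage 2 replicate 3, the highest of that group, the stage 2 difference was called (adjusted p = 0.0110). Over both stages it fell by 0.50 ± 0.11, or 1.41-fold (adjusted p = 0.0375), a call lost in 9 of the 10 fits that left out an array (adjusted p up to 0.140), the exception being the one without that replicate.

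Ski, a nuclear repressor of Smad targets, was lower at stage 2 on both probe sets. On 1429192_at the WT arrays read 8.80 and 8.98 at stage 1 and 9.05, 8.69 and 8.89 at stage 2, and the Id3KO arrays 8.52 and 8.38 at stage 1 and 8.11, 7.995 and 8.25 at stage 2. All Id3KO arrays were below all WT arrays, and the Id3KO stage 2 arrays were the lowest. The stage 2 difference was -0.76 ± 0.11 (adjusted p = 0.00770; 1.69-fold lower), the stage 1 difference -0.44 ± 0.14 (adjusted p = 0.282), and that over both stages -0.60 ± 0.09 (adjusted p = 0.00615). On 1426373_at the WT arrays read 8.24, 8.41, 8.27, 8.22 and 8.30, the Id3KO stage 1 arrays 7.92 and 8.08, and the Id3KO stage 2 arrays 7.75, 7.28 and 7.77. The genotypes again did not overlap. This probe set fell by 0.66 ± 0.13 at stage 2 (adjusted p = 0.0283; 1.58-fold lower), and the call was lost without WT stage 2 replicate 1 (adjusted p = 0.0726), replicate 2 (0.0785) or replicate 3 (0.103). Over both stages it differed by -0.49 ± 0.10 (adjusted p = 0.0298), and 7 of the 10 fits without an array lost that call (adjusted p up to 0.119). Tgfbr1 and Ski lie on the chromosome of Id3, with 731 and 267 protein-coding genes between them and Id3 in the RefSeq table; a part of linked DNA in their differences was not tested.

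Skil, the relative of Ski, fell at stage 2 on its bright probe set. On 1452214_at it read 9.51 and 9.53 in WT stage 1, 9.05 and 9.04 in Id3KO stage 1, 9.78, 9.68 and 9.81 in WT stage 2, and 8.81, 8.17 and 9.03 in Id3KO stage 2. The WT arrays were all above the Id3KO arrays, and Id3KO stage 2 was the most spread of the groups (8.67 ± 0.45, SD, n = 3, beside 9.75 ± 0.06 in WT stage 2). The stage 2 difference was -1.08 ± 0.18 (adjusted p = 0.0139; 2.12-fold lower), and the call was lost without WT stage 2 replicate 3 (adjusted p = 0.0602). The stage 1 difference was -0.47 ± 0.23 (adjusted p = 0.527), and over both stages Skil fell by 0.78 ± 0.15, or 1.71-fold (adjusted p = 0.0179). This last call was lost without any 1 of the stage 1 arrays (adjusted p 0.0610 to 0.0722). The dim probe set 1422054_a_at was above the table median on 4 arrays, all of them WT, and was tested through them alone. It differed by -0.31 ± 0.12 at stage 2 (adjusted p = 0.240).

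**Figure D2:**
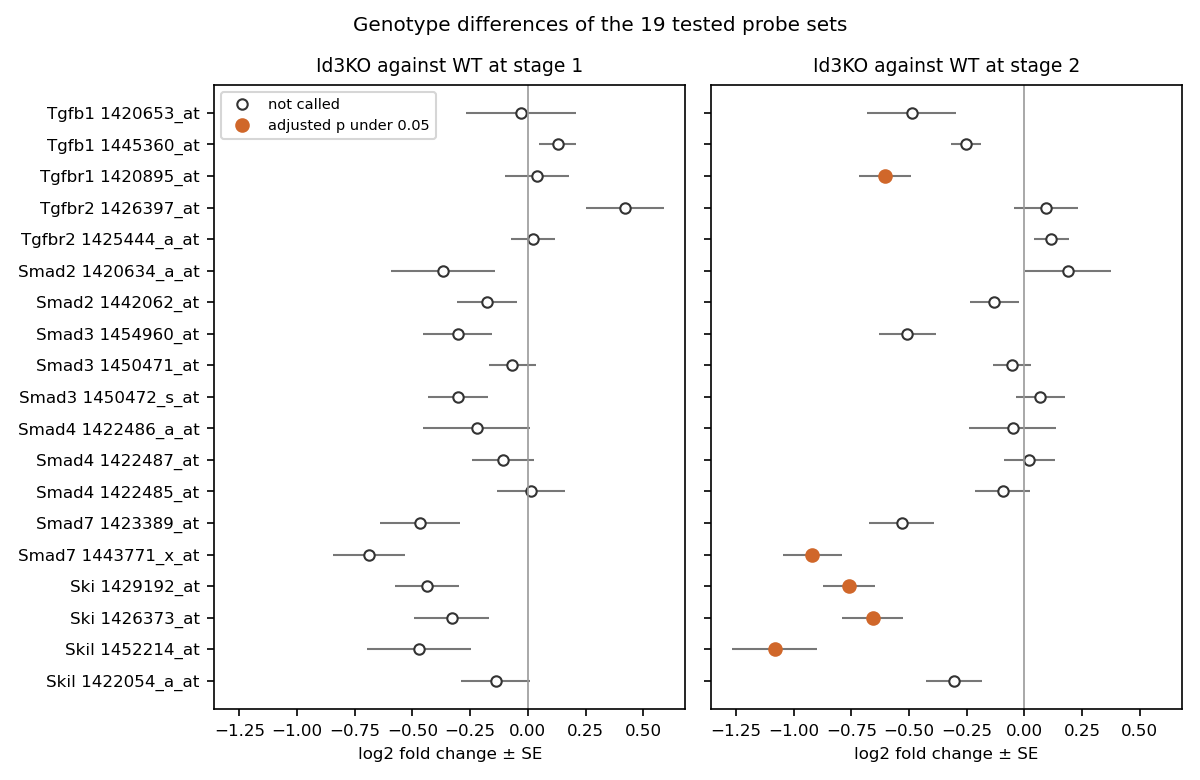
Log2 fold change of Id3KO against WT with its standard error for the 19 tested probe sets, at stage 1 (left) and stage 2 (right). Filled points have an adjusted p under 0.05 in limma; these are 5 probe sets of Tgfbr1, Smad7, Ski and Skil at stage 2, and 0 at stage 1.

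Id3KO stage 2 replicate 2 was the lowest of the 10 arrays for the bright probe sets of Tgfb1, Tgfbr2, Smad3, all 3 of Smad4, both of Ski, and Skil. It was also the Id3KO stage 2 array with the lowest Cd44, at 8.13. Without it, 4 member probe sets were called lower at stage 2, all but that of Tgfbr1. Its part in the values of the members beyond this was not tested.

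**Figure D3:**
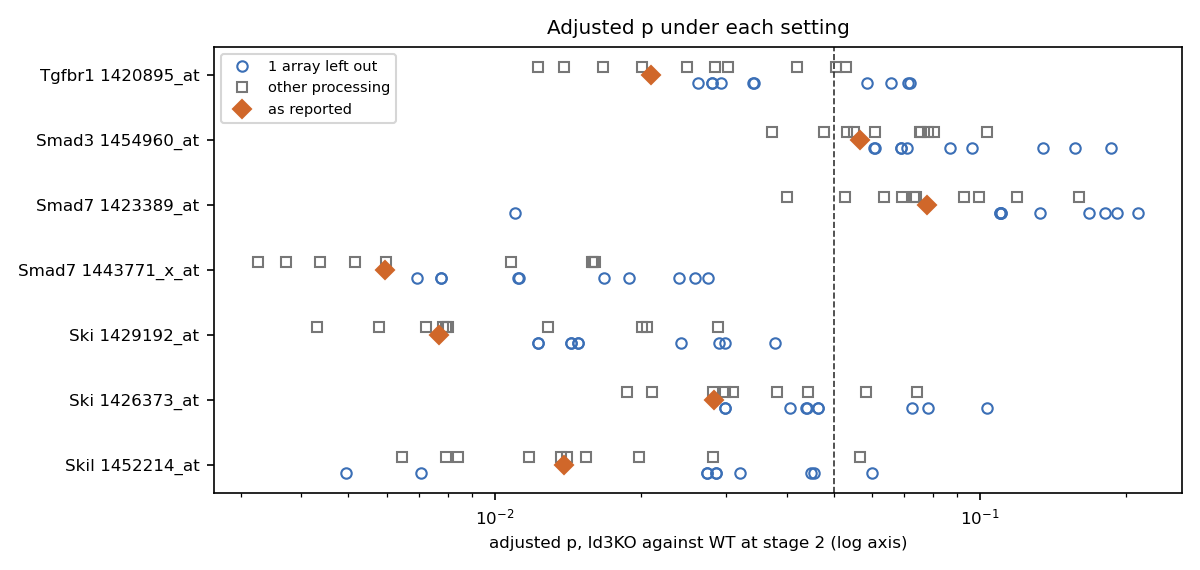
Adjusted p of the stage 2 genotype difference on a log axis for the 7 member probe sets called at stage 2 or over both stages, as reported (diamond), with 1 array left out (circles) and under other processing (squares), with a dashed line at 0.05. All points of Ski 1429192_at and Smad7 1443771_x_at are left of the line, and the other 5 have points on both sides.

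The step from stage 1 to stage 2 moved no member past the threshold in either genotype. In WT cells, limma called 0 of the 19 (2 lower and 1 higher at an unadjusted p under 0.05, beside 8.06% of all probe sets in either direction), where 0.016% of all probe sets were called. In Id3KO cells it called 0 of the 19 (4 lower and 0 higher unadjusted, beside 4.51% of all in either direction), where 0% of all were called. The medians of the 19 were -0.01 in WT and -0.11 in Id3KO cells, and in Id3KO cells 8 probe sets had every stage 2 array below every stage 1 array, against 8.91% of all probe sets. Tgfbr1 had the Id3KO stage difference of -0.58 ± 0.13 (adjusted p = 1.00), and the Ski probe sets -0.33 and -0.39. The interaction of genotype and stage was called for 0 of the 19 (2 lower at an unadjusted p under 0.05, beside 7.07% of all in either direction; smallest adjusted p 0.553) and for 0% of all probe sets. The stage 2 calls are therefore not shown to differ from the stage 1 differences of the same genes.

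Other genes of the pathway were read from fixed lists, with the brightest tested probe set for each gene. Where every Id3KO stage 2 array of a called gene was below the table median this is said beside the gene; it holds for Acvrl1, Tgif1, Ccr8 and Ifng, which their lists' counts include. With 1 probe set per gene, 3.22% of 11951 genes were called lower and 2.36% higher at stage 2, and 0.46% lower and 0.594% higher at stage 1. Genes of latent TGF-beta and its activation had 8 of 15 members tested and 0 called at both stages, with medians of -0.05 and -0.02. Furin, the protease that cuts the precursor, differed by -0.46 at stage 2 (adjusted p = 0.0509), and Nrros, which tethers latent TGF-beta, by 0.43 (adjusted p = 0.258). Of the other Smads, Smad1 and Smad5 were the 2 tested, with stage 2 differences of -0.24 (adjusted p = 0.733) and 0.12 (adjusted p = 0.775). The Smad-independent branch had 10 tested genes and 0 calls at either stage, and its kinase adaptor Tab2 differed by -0.59 at stage 2 (adjusted p = 0.0842).

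Among other receptors of the superfamily, 2 of 8 tested genes fell at stage 2 and 0 rose, with 0 called at stage 1 and medians of -0.33 at stage 1 and -0.20 at stage 2. Acvr1b, the activin type I receptor, read 8.53, 8.47 and 8.60 in WT stage 2 and 7.96, 8.16 and 8.05 in Id3KO stage 2, without overlap. It fell by 0.48 ± 0.09 at stage 2 (adjusted p = 0.0259), and by 0.46 over both stages (adjusted p = 0.00826). Acvrl1, the receptor ALK1, read 6.16, 5.88 and 6.42 in WT stage 2 and 5.42 to 5.53 on every Id3KO array, below the table median, so it was tested only because the WT arrays were higher and no fold is given. Its stage 2 difference was -0.66 ± 0.14 (adjusted p = 0.0353), a call lost without WT stage 2 replicate 1 or 3, either Id3KO stage 1 array or any Id3KO stage 2 array (adjusted p up to 0.0979). The Acvr1b call was lost without any WT stage 2 array or Id3KO stage 2 replicate 1 or 3 (adjusted p up to 0.103). Each has a second probe set that was not called, at 0.05 for Acvr1b (adjusted p = 0.822) and -0.08 for Acvrl1 (adjusted p = 0.607). Tgfbr3, the co-receptor betaglycan, was lower on every Id3KO array. It read 7.49, 7.40, 7.11, 7.73 and 7.83 on the WT arrays and 6.68, 6.54, 6.23, 5.87 and 7.09 on the Id3KO arrays. Its difference was -1.16 ± 0.29 at stage 2 (adjusted p = 0.0677) and it fell by 1.00 over both stages (adjusted p = 0.0449), a call that 2 of the 10 fits without an array kept.

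Of the Smad cofactors and anchors, 17 genes were tested; 1 fell at stage 1, 2 fell at stage 2 and 0 rose. Runx3, a transcription factor that binds with Smads, read 8.62, 8.77 and 8.73 in WT stage 2 and 6.53, 6.78 and 6.54 in Id3KO stage 2. Its difference was -1.30 at stage 1 (adjusted p = 0.0100; lost without either WT stage 1 array, at up to 0.0938) and -2.09 ± 0.12 at stage 2 (adjusted p = 0.000179), while a second Runx3 probe set differed by -0.08 (adjusted p = 0.630). Tgif1, a corepressor of Smad2, differed by -0.30 at stage 2 (adjusted p = 0.0454), a call lost whichever array was left out. It read 5.62 to 5.74 on the Id3KO arrays, below the table median, and 5.86 to 6.03 on the WT arrays, through which alone it was tested. Of 17 turnover and feedback genes, Pmepa1, a TGF-beta target that sequesters Smad2 and Smad3, was the 1 that fell at stage 2, by 0.68 ± 0.13 (adjusted p = 0.0215). The call was lost without any WT stage 2 array or Id3KO stage 2 replicate 1 or 2 (adjusted p up to 0.0744), and the other Pmepa1 probe sets differed by -0.31 and -0.27 (adjusted p = 0.122 and 0.123). The ubiquitin ligase Smurf2 differed by -0.19 (adjusted p = 0.522) and Fkbp1a, which binds Tgfbr1, by 0.23 (adjusted p = 0.0825).

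**Figure D4:**
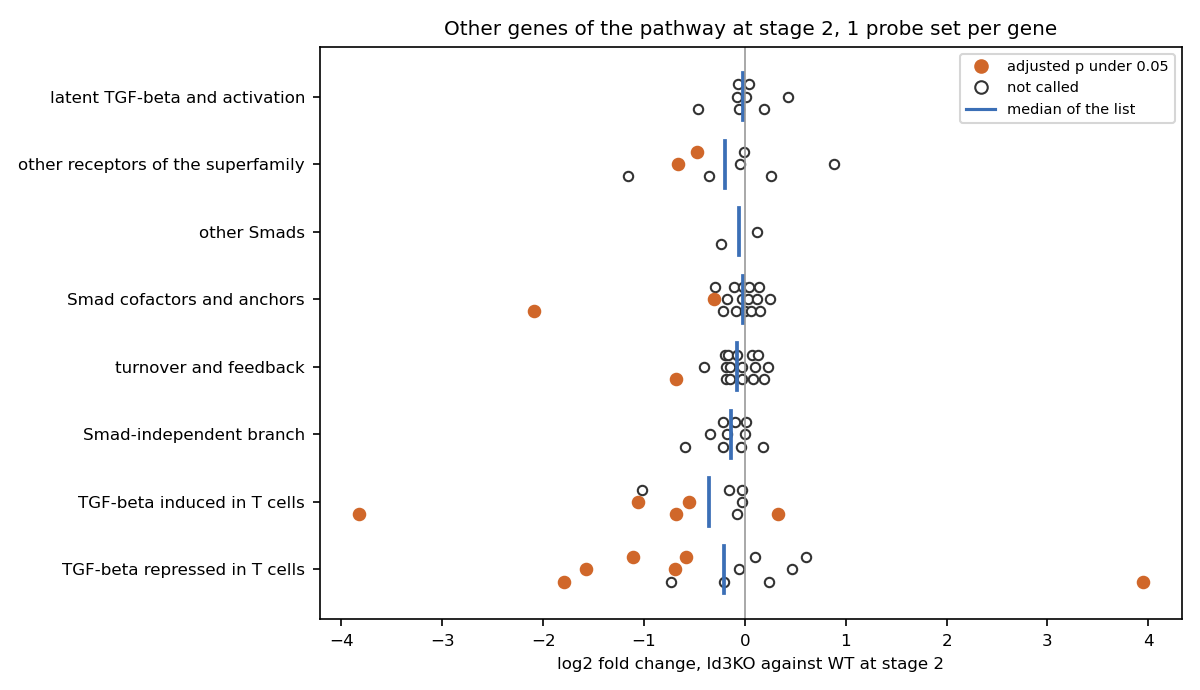
Log2 fold change of Id3KO against WT at stage 2 for each tested gene of 8 pathway lists, 1 point per gene, filled where limma's adjusted p was under 0.05, with a bar at each list's median. Of the genes that TGF-beta induces in T cells 4 fell and 1 rose, of those it represses 5 fell and 1 rose, and the 6 other lists hold 0 to 2 called genes each. Among all genes 3.22% were called lower and 2.36% higher.

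Genes that TGF-beta is known to induce in T cells had 10 of 17 members tested. At stage 1, 2 fell, and at stage 2, 4 fell and 1 rose, with medians of -0.30 and -0.36. Among all genes 0.46% were called lower at stage 1, and 3.22% lower and 2.36% higher at stage 2. Itgae, the integrin chain CD103, read 10.27, 10.77 and 11.03 in WT stage 2 and 6.46, 7.02 and 7.10 in Id3KO stage 2. Its difference was -2.31 at stage 1 (adjusted p = 0.0100; lost without either WT stage 1 array or Id3KO stage 1 replicate 2, at up to 0.0938) and -3.83 ± 0.21 at stage 2 (adjusted p = 0.000179). Nt5e, the ectoenzyme CD73, fell by 1.39 at stage 1 (adjusted p = 0.0106; lost without any 1 of the stage 1 arrays, at up to 0.0975) and by 1.06 ± 0.13 at stage 2 (adjusted p = 0.00408), while its other probe sets were not called. Ccr8, a chemokine receptor, differed by -0.56 at stage 2 (adjusted p = 0.0258; lost without WT replicate 3 or any Id3KO array of that stage, at up to 0.0766). All Id3KO arrays, at 5.51 to 5.67, were below the table median, so Ccr8 was tested only through its WT arrays. Pmepa1, above, is also of this list. Cdkn1a, the cell cycle inhibitor p21, rose by 0.33 at stage 2 (adjusted p = 0.0427), a call lost whichever array was left out. Klf10, an early TGF-beta response gene, differed by -1.02 ± 0.24 at stage 2 (adjusted p = 0.0533). Over both stages it differed by -0.87 (adjusted p = 0.0351), a call lost without any WT stage 2 array, among other arrays.

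Genes that TGF-beta is known to repress in T cells did not move one way. Of 15 listed, 13 were tested. At stage 1, 1 fell and 1 rose, and at stage 2, 5 fell and 1 rose, with medians of -0.07 and -0.21. Among all genes 0.46% fell and 0.594% rose at stage 1, and 3.22% fell and 2.36% rose at stage 2. At stage 2 Tbx21, the transcription factor T-bet, fell by 1.79 (adjusted p = 0.00185), Il18rap, an IL-18 receptor chain, by 1.58 (adjusted p = 0.00191) and Gzmb, a granzyme, by 1.11 (adjusted p = 0.00163). Il13 fell by 0.58 (adjusted p = 0.0327), a call lost without any 1 of the stage 2 arrays (adjusted p up to 0.109). Ifng differed by -0.69 (adjusted p = 0.00398), but it read above the table median only on the WT stage 2 arrays, at 6.03 to 6.29, and was tested through that group alone. Gzma, another granzyme, rose by 4.46 at stage 1 (adjusted p = 0.00251) and by 3.95 at stage 2 (adjusted p = 0.000454). Eomes was not called at either stage but differed by 0.97 over both (adjusted p = 0.0196). This call was lost without WT stage 2 replicate 3, among other arrays. Every WT array read Eomes below the table median, so it was tested through the Id3KO arrays alone.

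**Figure D5:**
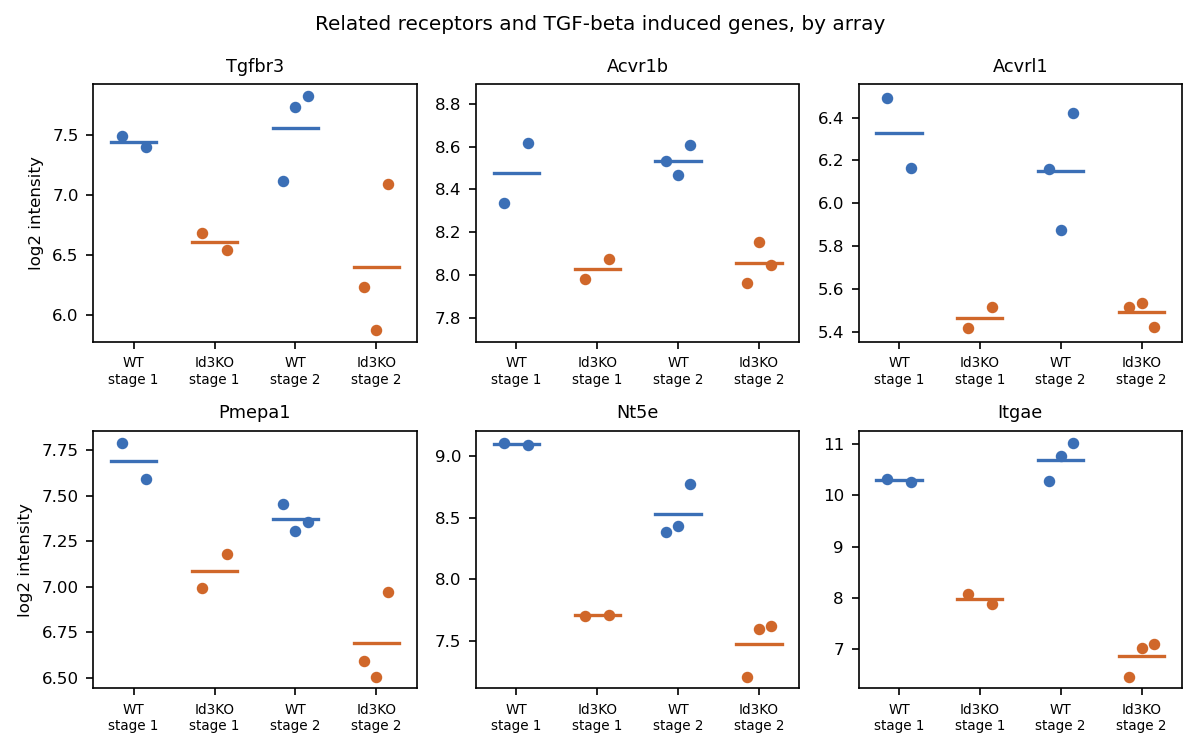
Log2 intensity on each of the 10 arrays for Tgfbr3, Acvr1b, Acvrl1, Pmepa1, Nt5e and Itgae, with the groups along the x axis, 1 point per array and a bar at each group mean. On all 6 panels every Id3KO array lies below every WT array, as on 3.75% of all tested probe sets. The 6 genes are a selection from the lists of other receptors and of induced genes, and do not stand for those lists. Other tested genes of the lists, among them Bmpr1a, Entpd1 and Cdkn1a, had arrays of the genotypes that overlapped.

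Markers of the NKT17 and NKT1 subsets were lower in Id3KO stage 2 cells: 9 of 10 tested NKT17 genes and 5 of 8 tested NKT1 genes fell, and 0 rose. Of all genes, 3.22% were called lower and 2.36% higher. At stage 1, 2 NKT17 genes were called lower and 0 higher, beside 0.46% and 0.594% of all genes, and 0 NKT1 genes were called. These were Rora, at -1.455 (limma, adjusted p = 0.00303), and Maf, at -1.05 (adjusted p = 0.0158). The Maf call was lost without either WT stage 1 array. Among the NKT1 genes, Tbx21 and Ifng are also in the repressed list above, and Ifng was tested through WT stage 2 alone. The Il2rb call was lost without any WT stage 2 array, and the Klrd1 call without WT stage 2 replicate 2 or 3, among other arrays. The summed intensity of the NKT17 markers was 3675 to 5614 in WT stage 2 and 1101 to 1680.5 in Id3KO stage 2, and 1701 to 1991 in WT stage 1 and 1054 to 1214 in Id3KO stage 1, with 10 of 11 genes tested and Il17a below the table median. The NKT1 marker sum was 3548 to 3648 in WT stage 2 and 1226 to 1575 in Id3KO stage 2, and 1783 to 1804 in WT stage 1 and 1068 to 1577 in Id3KO stage 1. Of 7 NKT2 markers, Plac8 (by 0.52, adjusted p = 0.0119) and Izumo1r (by 0.59, adjusted p = 0.0273) rose at stage 2, Il13 fell and 4 were not called. The Plac8 call was lost without WT stage 2 replicate 2 or 3. The Izumo1r call was lost without WT stage 2 replicate 1 or 2 or any Id3KO stage 2 array. At stage 1 Izumo1r differed by 0.98 (adjusted p = 0.0217), a call lost without any 1 of the stage 1 arrays. Il13 differed there by -0.98 (adjusted p = 0.0240), a call lost without WT stage 2 replicate 3, among other arrays. The part of the subset mix in the differences of the TGF-beta genes was not tested.

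In the lists for other cells, some markers were below the table median and others were not. Among double-positive thymocyte markers Rag1, Rag2, Cd8b1, Ptcra and Dntt were below it, among regulatory T cell markers Foxp3, Il2ra and Ctla4, among B cell markers Ms4a1 and Blnk, and among myeloid markers Itgam, Itgax, Adgre1 and Tyrobp. Cd4 read 7.51 to 7.96, Ikzf2 8.29 to 9.13 and Tnfrsf18 7.72 to 8.55 over the 10 arrays. The B cell marker sum was 302 to 345 over all 10 arrays and the thymic epithelial sum 387.5 to 422. The myeloid sum was 534 to 689 over all arrays, and 593 to 689 in Id3KO stage 2, where Fcer1g read 6.77, 7.70 and 7.01 beside 6.36 to 6.45 in WT stage 2 (adjusted p = 0.0980). The 5 other tested myeloid genes had stage 2 differences of -0.09 to 0.10. The platelet marker sum was 819 to 950.1 in WT stage 2 and 687 to 756 in Id3KO stage 2, with Pf4 and Ppbp, which mark platelets, below the table median. Of its tested genes, Itgb3 differed by -0.41 (adjusted p = 0.0660), Itga2b by -0.17 and Gp9 by 0.00 at stage 2. Over both stages Itgb3 was called, at -0.55 (limma, adjusted p = 0.00646). The fibroblast and endothelial sum was 372.7 to 394.1 over all arrays. Of that list Pdgfrb was called at stage 1, at -0.82 (adjusted p = 0.0240), on a probe set above the table median only on the WT stage 1 arrays.

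The 3 genes whose pattern over the 10 arrays was most like each called member were found by Pearson's r over 11352 candidate genes, as a description in which the arrays share their groups. Skil was most like B4galt1 (r = 0.98), Icos (0.98) and Nfatc2 (0.97), and Ski most like Nfatc3 (0.98), Spata13 (0.96) and Herc3 (0.95). Smad3 was most like Tex2 (r = 0.98), Septin9 (0.96) and Rhog (0.95), and Smad7 on 1423389_at most like Gbp2 (0.95), Plaat3 (0.94) and Igtp (0.94). Tgfbr1 was most like Hs2st1 (r = 0.92), Ppm1h (0.92) and Bud13 (0.90).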

How the data were processed

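RNA of sorted thymic iNKT cells was amplified with 2-cycle labelling and hybridised to 10 Affymetrix arrays, per the labels' protocols. The authors deposited probe set intensities on a linear scale, made with RMA per the submitters' processing notes in a version that is not given. They spanned 29 to 15399. The plan had assumed log2 values, so log2 was taken here from the deposited intensities. Probe sets were named through GEO's platform annotation: 34945 had 1 gene, 932 several and 9160 none, and no probe set of several genes holds a member.

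A linear model with a mean for each group was fitted to all 10 arrays with limma 3.58.1 (R 4.3.3; 6 residual and 2.80 prior degrees of freedom), with 6 two-sided contrasts: Id3KO against WT at stage 1, at stage 2 and over both stages, stage 2 against stage 1 in each genotype, and the interaction. P-values were adjusted by Benjamini-Hochberg over the 25061 tested probe sets, and an adjusted p under 0.05 was a call. Errors are standard errors of the fit. The number of arrays limits the precision. The fit was tested on simulated data in which every group had the same spread, so unequal spreads were not tested. The planted changes were larger than most differences of the members. Replicate numbers were not shown to pair the arrays.

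All 9 members are named with every probe set. Of each pathway list, up to 6 called genes are named by size of change, with other genes as examples. The members, lists and tests were chosen with earlier results of these data known.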

Additional observations from a re-analysis of the deposited data

How the results depend on the processing

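The count of called member probe sets at stage 2 was 5, and it was 2 with only the arrays compared in the fit and 3 with the replicate number as a block. Without 1 array at a time it was 2 to 5, and the lowest count came without WT stage 2 replicate 3, where 504 of all probe sets were called, beside 1055 with all arrays; it was 3 without WT stage 2 replicate 2. Over both stages it was 6, and 2 to 5 without 1 array, with 2 for each stage 1 array and 3 for each WT stage 2 array; it was 4 with no filter on dim probe sets and 4 with the block. With only the arrays compared, the stage 2 adjusted p was 0.0506 for Tgfbr1, 0.0743 for Ski 1426373_at and 0.0567 for Skil 1452214_at, and with the block it was 0.0531 for Tgfbr1 and 0.0584 for Ski 1426373_at; the cause was not tested. Where an array is left out of stage 1, a group of 1 array is assumed to vary like the other groups. With only the arrays compared, all probe sets called numbered 626 at stage 2 and 28 at stage 1, where the fit over all arrays called 201.

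Deviations from the group means of the 13 same-numbered pairs of arrays correlated at -0.311 to 0.133, with 2 above 0.1. In a group of 2 arrays the deviations mirror each other, so the 13 pairs are not separate checks. Differently numbered pairs of WT stage 2 and Id3KO stage 1 reached 0.311 (replicates 1 and 2) and 0.230 (replicates 2 and 1). A source shared under other numbers was not tested. The same numbers were not shown to pair arrays, and the block is an alternative only. A block with stage 1 numbers crossed between the genotypes, added after seeing the data, called 5 member probe sets at stage 2 and 5 over both stages. The stage 1, stage and interaction counts were 0 under every setting run, and the Ski 1429192_at and Smad7 1443771_x_at calls at stage 2 were kept under every setting that tested them (adjusted p 0.00430 to 0.0379 and 0.00325 to 0.0276). Smad7 1443771_x_at met the filter on dim probe sets only through its WT arrays. No difference that was called changed its sign. Dim probe sets near the table median, and groups of 2 and 3 arrays, limit what these data can show.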
